A study of Homo sapiens with 6 samples.

Results

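A set of 10 genes that define blood vessel endothelium was followed in RNA from A549 tumours grown under the skin of BALB/c nude mice. The genes were taken by their Ensembl IDs from a fixed list, and all 10 were found among the 77134 mouse gene rows of the deposited table. They were Pecam1 (ENSMUSG00000020717), Cdh5 (ENSMUSG00000031871), Kdr (ENSMUSG00000062960), Flt1 (ENSMUSG00000029648), Tek (ENSMUSG00000006386), Tie1 (ENSMUSG00000033191), Eng (ENSMUSG00000026814), Vwf (ENSMUSG00000001930), Emcn (ENSMUSG00000054690) and Esam (ENSMUSG00000001946). The A549 line derives from a human lung adenocarcinoma, and nude mice lack a thymus and most T cells. The 3 vector control tumours came from A549 cells infected with the lentivirus pLV-CMV-EGFP-Neo. The 3 overexpression tumours came from cells infected with pLV-CMV-HIF1A-AS3-EGFP-Neo, which adds HIF1A-AS3, an RNA antisense to human HIF1A, under the CMV promoter. Both groups therefore carried the EGFP and Neo cassette, and the vectors were given to the grafted human cells, not to the host vessels measured here. The labels do not say how old the hosts were or whether each tumour grew in its own mouse, so a p-value here reflects only how these 6 tumours vary, which may be technical. The introduced human RNA was not analysed here, so the labels were not checked against it.

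Endothelial cells line the inside of vessels and are held together by adhesion proteins at their junctions. Their growth and survival depend on receptors for VEGF and for angiopoietins, and they secrete or display glycoproteins that act in clotting and in the contact with blood cells. A xenograft of human cells draws its vessels from the host, so transcripts of mouse endothelial genes report on host cells, together with whatever human RNA was assigned to those mouse genes. In whole tumour RNA, fewer endothelial cells and less RNA per endothelial cell cannot be told apart.

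The 6 libraries held 4167784 to 4769157 estimated counts on mouse genes, of which 1238 to 2446 fell on the 9 endothelial genes that passed the filter on low counts. These 9 genes made up 0.0486% to 0.0577% of the counts tested in the controls and 0.0292% to 0.0413% in the overexpression tumours. Levels below are CPM, counts scaled to library size, with TMM, a factor that balances libraries on the bulk of their genes. That factor was 0.742 in overexpression replicate 1 and 1.02 to 1.10 in the other 5 libraries, and 3 counts stood for 0.632 to 0.852 CPM. Overexpression replicate 1 stood apart over all genes when libraries were scaled by their totals only. The variance of its differences from the other libraries was then 49.5 to 70.8 times that of counting noise. Between the other libraries it was 3.89 to 29.0 times. This measure did not use TMM, so it is not separate from the low factor of this library. For genes whose reading changes with this library or its factor, values without it or on library totals stand beside the result. Transcript lengths were not used here, so a CPM is compared between libraries and never between genes.

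**Figure D1:**
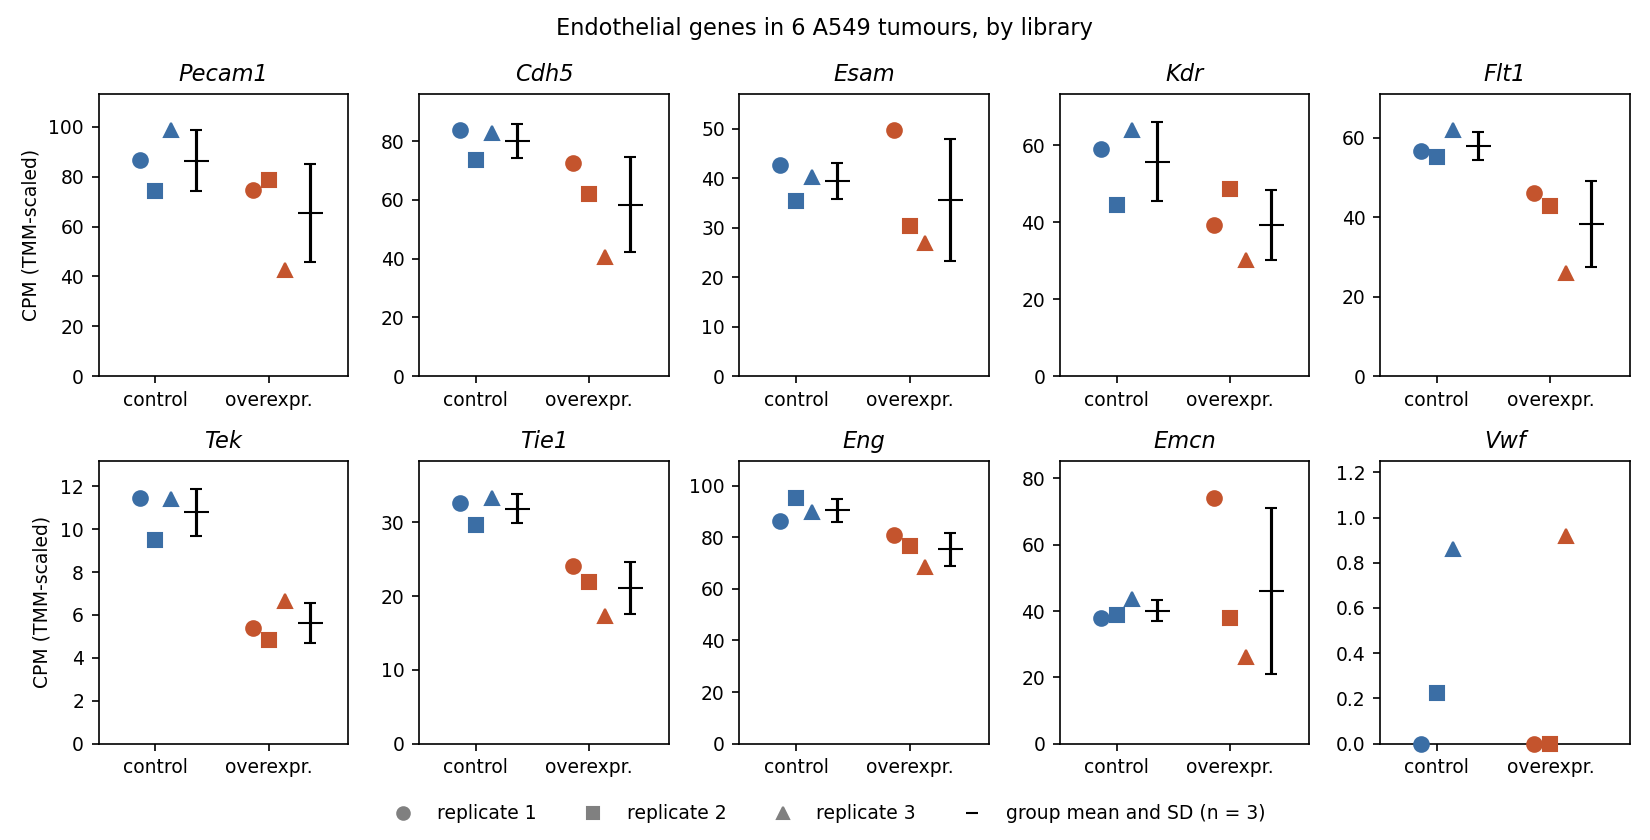
TMM-scaled CPM (vertical axes, from 0) of the 10 endothelial genes in each control (blue) and overexpression (orange) library, with marker shapes for replicates and bars for the group mean and SD. Tek, Tie1, Flt1, Eng and Cdh5 show all 3 overexpression tumours below all 3 controls, Emcn shows overexpression replicate 1 far above the rest, and Vwf, drawn without means, stays under 1 CPM throughout.

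The junction genes were lower on average in overexpression tumours, but none passed the test, and the lowest value of each of the 3 was that of overexpression replicate 3. Pecam1 encodes an adhesion molecule of the immunoglobulin family found along endothelial contacts and, more sparsely, on platelets and leukocytes. It measured 86.7, 74.2 and 98.6 CPM in control replicates 1, 2 and 3, and 74.7, 78.6 and 42.8 CPM in overexpression replicates 1, 2 and 3. Overexpression replicates 1 and 2 lay within the control range, and only replicate 3 lay below it. On library totals, without the TMM factor, replicate 1 also lay below that range, at 55.4 CPM against 79.1 to 108.3 CPM in the controls. The group levels of Pecam1 were 86.5 ± 12.2 and 65.4 ± 19.7 CPM (SD, n = 3 each). This is a log2 fold change of -0.40, whose 95% interval ran from -0.997 to 0.19 (edgeR quasi-likelihood test, adjusted p = 0.72). For Pecam1 it was -0.18 without overexpression replicate 3 and -0.65 on library totals, where edgeR gave an unadjusted p of 0.041, adjusted p = 0.73.

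Cdh5 encodes VE-cadherin, the cadherin of endothelial adherens junctions. Its CPM was 83.7, 73.5 and 82.9 in the controls and 72.4, 62.2 and 40.7 in the overexpression tumours. The groups did not overlap, but control replicate 2 and overexpression replicate 1 nearly met, and with DESeq2 size factors in place of TMM 4 genes rather than 5 had groups apart, Cdh5 being the one lost. The log2 fold change of Cdh5 was -0.46 (standard error 0.23, interval -0.99 to 0.08, edgeR adjusted p = 0.70). For Cdh5 the value was -0.25 without overexpression replicate 3, -0.67 without replicate 1 and -0.71 on library totals, with unadjusted edgeR p values of 0.18, 0.020 and 0.013. Esam, an adhesion molecule of endothelial tight junctions that platelets also carry, measured 42.6, 35.5 and 40.2 CPM in the controls and 49.7, 30.4 and 26.9 CPM in the overexpression tumours. With TMM the overexpression tumours lay on both sides of the controls, with replicate 1 the highest of all 6 libraries and replicates 2 and 3 the lowest. On library totals Esam in replicate 1 was 36.9 CPM, below all 3 controls (37.9 to 46.8 CPM), so its place turns with the scaling. The log2 fold change of Esam was -0.15 with an interval of -0.74 to 0.44 (edgeR adjusted p = 0.88). Without overexpression replicate 3 it was 0.02, without replicate 1 it was -0.49 at an unadjusted edgeR p of 0.026, and on library totals it was -0.43 at 0.090.

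All 5 receptors had lower mean levels in overexpression tumours, and 3 of them, Tek, Tie1 and Flt1, had an unadjusted p below 0.05. Tek encodes the angiopoietin receptor that keeps vessels quiescent when bound by its ligand from mural cells. It had 53, 42 and 53 counts in the controls and 19, 23 and 29 counts in the overexpression tumours, which is 11.5, 9.50 and 11.4 CPM against 5.40, 4.85 and 6.67 CPM. Every overexpression tumour lay below every control, and the spread within each group was small beside the gap, with group levels of 10.8 ± 1.11 and 5.64 ± 0.935 CPM (SD, n = 3 each). The log2 fold change of Tek was -0.93 (standard error 0.25, interval -1.52 to -0.35), or 0.524 of the control level, the lowest of the 9 genes. Its unadjusted p was 0.0064 and its adjusted p 0.70 in edgeR, so it did not pass the threshold of 0.05 over 12637 genes. Tek is also the thinnest measurement of the 9: the exact Poisson 95% interval, which covers counting error only, runs from 39.7 to 69.3 for 53 counts and from 11.4 to 29.7 for 19 counts.

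Tie1 encodes the partner receptor of Tek, which binds no angiopoietin strongly by itself and modulates Tek signalling. Its CPM was 32.7, 29.6 and 33.3 in the controls and 24.1, 21.9 and 17.3 in the overexpression tumours, again with no overlap. The group levels were 31.9 ± 1.96 and 21.1 ± 3.52 CPM (SD, n = 3 each). The log2 fold change of Tie1 was -0.60, its interval -1.04 to -0.15. In edgeR the unadjusted p of Tie1 was 0.015 and its adjusted p 0.70.

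Kdr and Flt1 encode the VEGF receptors of blood vessels, Kdr the main signalling receptor and Flt1 a receptor of higher affinity and weaker kinase activity, which also exists as a secreted trap for VEGF. Kdr measured 59.0, 44.3 and 63.8 CPM in the controls and 39.2, 48.5 and 30.1 CPM in the overexpression tumours. The groups overlapped because overexpression replicate 2 lay above control replicate 2. The log2 fold change of Kdr was -0.50 with an interval of -1.05 to 0.04 (edgeR unadjusted p = 0.0635, adjusted p = 0.70). On library totals it was -0.73, at an unadjusted edgeR p of 0.030. Without overexpression replicates 1, 2 and 3 in turn it was -0.536, -0.685 and -0.349, with unadjusted edgeR p values of 0.090, 0.019 and 0.16.

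Flt1 measured 56.7, 55.2 and 61.9 CPM in the controls and 46.0, 42.8 and 26.0 CPM in the overexpression tumours. The controls were close together, with a coefficient of variation of 6.08%, and all 3 overexpression tumours lay below them, spread by 28.1%. The log2 fold change of Flt1 was -0.60 (standard error 0.23, interval -1.14 to -0.06), and edgeR gave an unadjusted p of 0.034, adjusted p = 0.70. Leaving out overexpression replicate 3 brought it to -0.39, at an unadjusted p of 0.053 in edgeR. Without control replicates 1, 2 and 3 in turn it was -0.611, -0.629 and -0.546, with unadjusted edgeR p values of 0.077, 0.062 and 0.098. Without overexpression replicates 1 and 2 these p values were 0.015 and 0.031.

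Eng encodes endoglin, a co-receptor for ligands of the TGF-beta and BMP family on endothelium, and is also found on some stromal cells and macrophages. Its CPM was 86.3, 95.2 and 89.8 in the controls and 80.9, 76.7 and 68.3 in the overexpression tumours. The groups did not overlap, but replicate 1 of each group lay close to the other, with means of 90.4 ± 4.51 and 75.3 ± 6.43 CPM (SD, n = 3 each). The log2 fold change of Eng was -0.26 with an interval of -0.62 to 0.09 (edgeR adjusted p = 0.70). Without overexpression replicate 1 Eng was at -0.35 and on library totals at -0.50, with unadjusted edgeR p values of 0.047 and 0.038.

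Of the remaining pair, a surface and a secreted glycoprotein, only Emcn could be tested, and it did not pass. Emcn encodes endomucin, a sialomucin on the surface of capillary and venous endothelium. It measured 37.8, 38.9 and 43.6 CPM in the controls and 74.1, 37.9 and 26.0 CPM in overexpression replicates 1, 2 and 3. Replicate 1 was the highest of the 6 libraries, replicate 2 lay among the controls and replicate 3 was the lowest. The group SD was 25.1 CPM in overexpression tumours against 3.08 CPM in controls, and the log2 fold change of 0.19 had an interval of -0.63 to 1.02 (edgeR adjusted p = 0.89). Its sign turned without overexpression replicate 1, at -0.36, and with library totals only, at -0.12. Replicate 1 is the library with the low TMM factor, but its Emcn level was also the highest on library totals, at 55.01 CPM against 41.5, 41.5 and 47.9 CPM in the controls.

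Vwf encodes von Willebrand factor, the clotting protein that endothelial cells store in their granules. It had 0, 1.24 and 4.02 estimated counts in the controls and 0, 0 and 3.87 in the overexpression tumours. The highest value, 0.920 CPM, lay near the level that 3 counts give, so this gene was at the detection limit in both groups, failed the filter and was not tested. By its one-sided 95% limit a count of 0 allows up to 3 counts, which is 0.649 CPM in control replicate 1 and 0.632 to 0.852 CPM in overexpression replicates 1 and 2. Of the 10 endothelial markers 9 were thus measured well above this limit, and Vwf was not detectable at a level that allows a comparison.

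As a group, 8 of the 9 genes tested had a fitted log2 fold change below 0, where 49.4% of all 12637 genes tested did. Their median was -0.46, beside 0.01 over all genes. None of the 9 passed the adjusted threshold in edgeR, and 0.0158% of all genes did. At an unadjusted p below 0.05 and a lower level there were 3 of the 9 genes in edgeR, against 2.71% of all genes. DESeq2 and limma-voom on the same genes also gave 0 of the 9 genes at the adjusted threshold and 3 lower at an unadjusted p below 0.05. Of all genes 2.45% and 3.2% were lower at that p. The groups lay apart, with the overexpression tumours lower, in 5 of the 9 genes, namely Cdh5, Flt1, Tek, Tie1 and Eng, against 6.36% of all genes. Many of the 9 genes varied together over the 6 libraries, which also differ in group. Their pairwise correlations had a median of 0.68 and ran from -0.20 to 0.98. These counts therefore do not stand for 9 separate observations.

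The size of this shift rested in part on single libraries and on the scaling. Without overexpression replicate 3 the median of the 9 genes was -0.25, and leaving out any other library gave -0.56 to -0.39. Without control replicate 1 or control replicate 3 a single gene, Tek in each case, was lower at an unadjusted edgeR p below 0.05. Of all genes 1.34% and 2.18% were. Without overexpression replicate 1 there were 6 of the 9 genes, against 2.93% of all genes. Scaling by library totals only, which moved the median of all genes from 0.01 to -0.21, put the median of the 9 genes at -0.71, or -0.50 relative to all genes against -0.46 with TMM. With library totals 7 of the 9 genes were lower at an unadjusted p below 0.05, where 4.63% of all genes were, and none passed the adjusted threshold. Across the 17 alternatives the fold change of Tek was -1.16 to -0.83, with unadjusted p values of 0.0053 to 0.030 and adjusted p values of 0.17 to 1.00 over edgeR, DESeq2 and limma-voom.

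**Figure D2:**
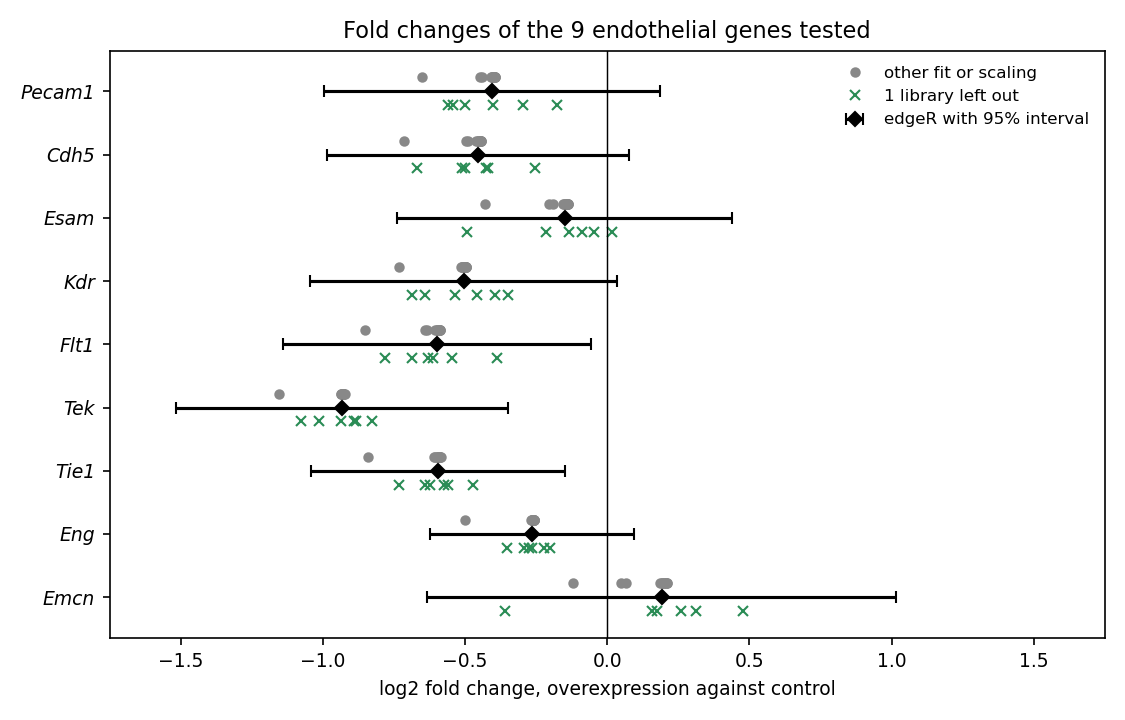
Log2 fold changes (horizontal axis, overexpression against control) of the 9 genes tested, with the edgeR estimate and its 95% interval as a black diamond and bar, other fits and scalings as grey points, and fits with 1 library left out as green crosses. Only the intervals of Tek, Tie1 and Flt1 lie wholly below 0, intervals are not adjusted for the number of genes, and Emcn and Esam have alternatives on both sides of 0.

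Read library by library, the overexpression tumours did not share a single profile. Log2 CPM with TMM was set against the control mean of each gene. The median over the 9 genes was -0.20 in overexpression replicate 1, -0.36 in replicate 2 and -0.86 in replicate 3. The controls lay between -0.12 and 0.08. The value of replicate 1 depends on its low TMM factor. Overexpression replicate 3 was the lowest of the 6 libraries in 8 of the 9 genes, where it was lowest in 18.9% of all genes. That count is with TMM: on library totals Kdr and Eng were lowest in replicate 1. The exception was Tek, which in replicate 3 was the highest of the overexpression tumours and lay 0.65 below the control mean, against 0.94 and 1.08 below it in replicates 1 and 2. Replicate 1 combined Tek at 0.94 and Kdr at 0.49 below the control mean with Emcn 0.88 and Esam 0.34 above it. The size of each of these differences depends on the low TMM factor of this library. On library totals Tek and Kdr in replicate 1 stayed below all controls, by more than with TMM. Emcn stayed above all controls, by less than with TMM, and Esam fell below them. The summed CPM of the 9 genes was 497, 456 and 526 in the controls and 467, 404 and 285 in the overexpression tumours, and on this sum replicate 1 lay within the control range. Without TMM it did not: the 9 genes held 0.0346% of its counts, below the lowest control at 0.0486%. Overexpression replicates 2 and 3 had 0.0413% and 0.0292%, so the order of replicates 1 and 2 turned with the scaling.

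**Figure D3:**
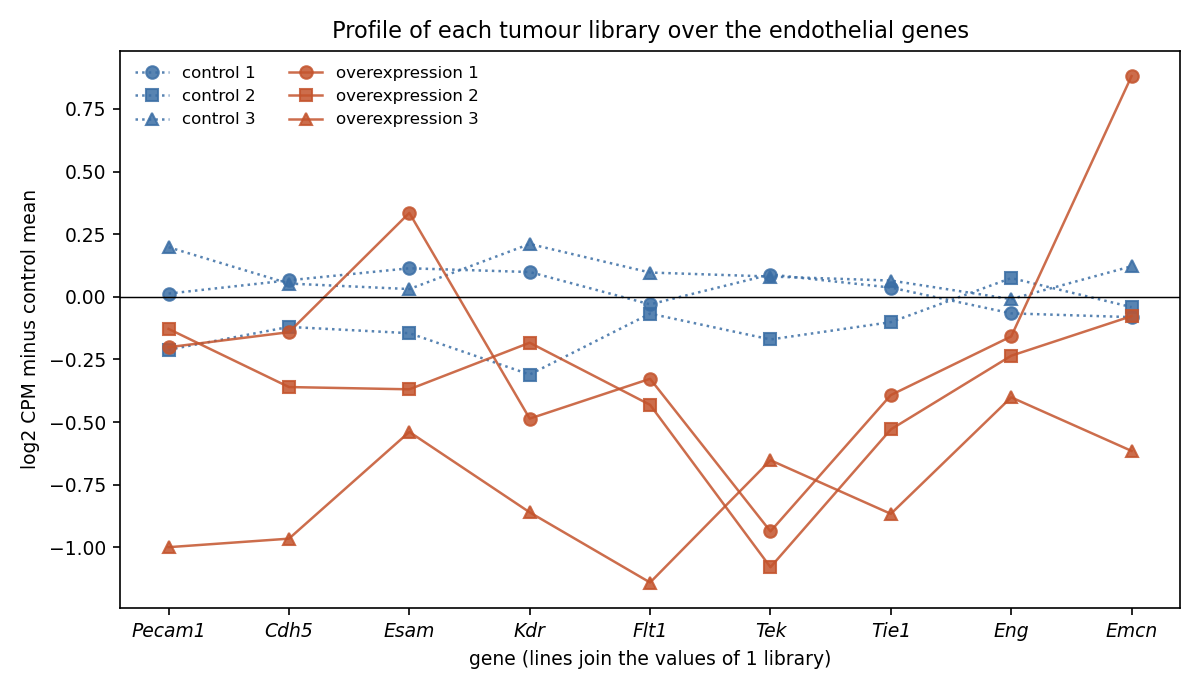
Log2 CPM minus the control mean of each gene (vertical axis) for the 9 genes tested, with 1 line per library, dotted blue for controls and solid orange for overexpression tumours. Controls stay between -0.31 and 0.21, overexpression replicate 3 runs lowest in all genes but Tek with TMM, and replicate 1 lies above the controls in Emcn and, with TMM but not on library totals, in Esam.

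The overexpression tumours were also more spread than the controls in all 9 genes, by the SD of log2 CPM. Over all genes tested 76.4% had the larger SD in overexpression tumours, so a wider spread was the common case in these libraries. Coefficients of variation were 4.98% to 18.2% among controls and 8.54% to 54.5% among overexpression tumours, with Eng the steadiest gene and Emcn the most variable one in the overexpression group.

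Ratios between members compare them inside a library and do not depend on its scaling. Each was set against Pecam1, with exact binomial 95% intervals that cover counting error only. Emcn was 0.436, 0.525 and 0.443 of the Pecam1 count in the controls and 0.992, 0.482 and 0.609 in overexpression replicates 1, 2 and 3. The interval in replicate 1, 0.833 to 1.18, lay above the intervals of all 3 controls, the highest of which ended at 0.633. For Esam the ratio was 0.491, 0.480 and 0.408 in the controls and 0.665, 0.386 and 0.630 in the overexpression tumours, so replicate 2 lay below and replicates 1 and 3 above the control values. The Esam intervals of overexpression replicates 1 and 3, 0.546 to 0.809 and 0.495 to 0.797, overlapped those of control replicates 1 and 2. They lay above that of control replicate 3, 0.342 to 0.484. The interval of overexpression replicate 2, 0.316 to 0.469, overlapped that of each control and lay below those of overexpression replicates 1 and 3. Overlap of intervals is not a test, so it does not decide which of these differences exceed counting error.

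Tek was 0.132, 0.128 and 0.115 of Pecam1 in the controls and 0.0722, 0.0617 and 0.156 in overexpression replicates 1, 2 and 3. The ratio of Tek to Pecam1 was thus below the control values in replicates 1 and 2 and above them in replicate 3. The interval in overexpression replicate 1, 0.0428 to 0.115, overlapped that of each control, the lowest of which began at 0.0852. The interval in overexpression replicate 2, 0.0386 to 0.0939, overlapped those of control replicates 2 and 3. It ended below that of control replicate 1, which began at 0.0973. Set against Tie1, Tek gave 0.352, 0.321 and 0.343 in the controls and 0.224, 0.221 and 0.387 in the overexpression tumours, again with replicates 1 and 2 below and replicate 3 above the controls. Cdh5 kept close to Pecam1, at 0.841 to 0.991 of it in the controls and 0.791 to 0.970 in the overexpression tumours. The difference between groups in the mean log2 ratio to Pecam1 was 0.51 for Emcn and -0.50 for Tek. For Emcn it was 0.22 without overexpression replicate 1, and for Tek -0.24 without overexpression replicate 2 and -0.91 without replicate 3, so the ratios also rested on single tumours.

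**Figure D4:**
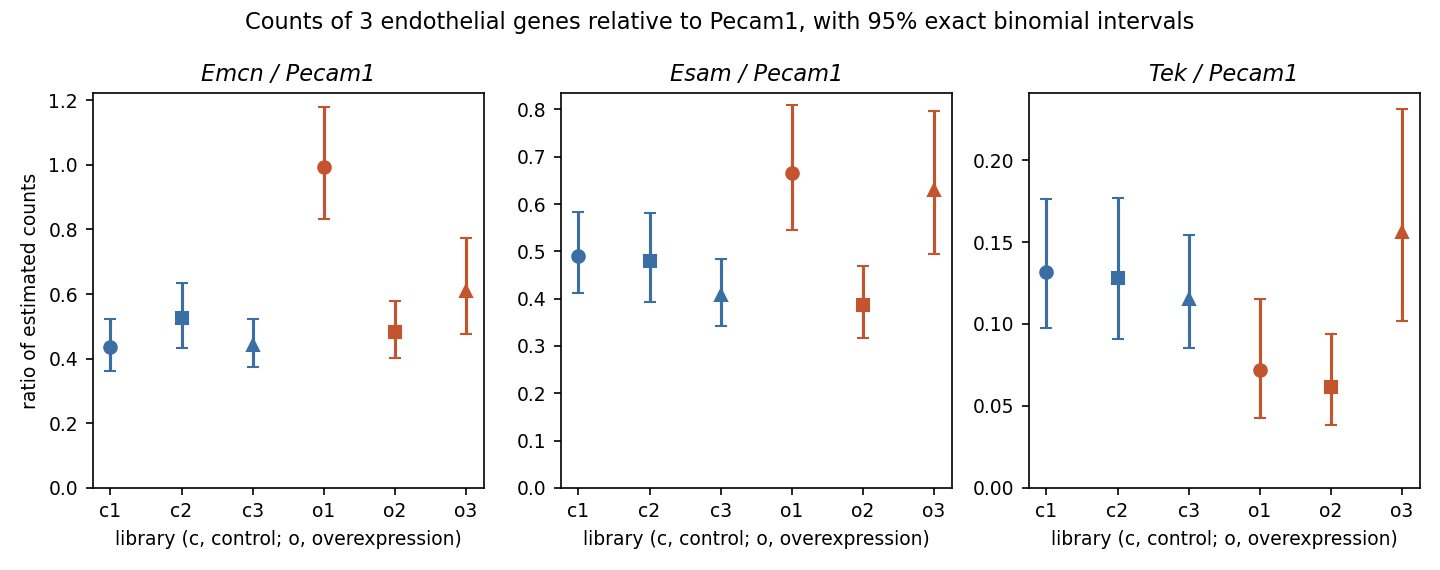
Ratio of the estimated counts of Emcn, Esam and Tek to those of Pecam1 (vertical axes, from 0) in each library, controls in blue and overexpression tumours in orange, with exact binomial 95% intervals for counting error. Overexpression replicate 1 stands highest for Emcn at 0.992, and replicates 1 and 2 stand lowest for Tek at 0.0722 and 0.0617.

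Over the 6 libraries the members resembled each other unevenly. The 36 pairwise Pearson correlations of log2 CPM ran from -0.20 between Tek and Emcn to 0.98 between Cdh5 and Flt1, with a median of 0.68. Against the mean of the other 8 genes, Cdh5, Flt1, Tie1 and Pecam1 had an r of 0.99, 0.97, 0.96 and 0.91, while Tek and Emcn had 0.49 and 0.41. These values describe 6 libraries that also differ in group and scaling. Outside the list, 88 of 12628 genes, or 0.697%, had an r of at least 0.9 with the mean of the 9 genes. The 2 most alike were ENSMUSG00000070348.6 at r = 0.992, with a control level of 60.5 ± 7.05 CPM and an overexpression level of 45.5 ± 9.84 CPM, and ENSMUSG00000054434.15 at r = 0.984, with 9.69 ± 0.992 and 7.27 ± 1.74 CPM (SD, n = 3 each). They were picked as the highest of 12628 values, and no name was given to these IDs here.

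Markers of pericytes, macrophages, platelets and other host cells could not be set beside these values, since the table pairs no ID with a name, and their part in the levels of genes that such cells share (Pecam1, Esam, Eng) was not tested. Estimates of Kdr and Tek were whole to within 0.001 in all 6 libraries, those of Eng and Emcn in 1 library each.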

How the data were processed

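Values are estimated counts per mouse gene as the authors deposited them, in 1 table with 1 column per tumour and no scaling, per the file header and the values. Its name points to salmon, with no version or transcript set named in the sources used here. The submitters' processing notes name, with no role or order, the build mm10 and the tools featureCounts 2.0.6, HISAT2 2.2.1 and Trimmomatic 0.39, besides edgeR and DESeq2. The kit was a BGI mRNA kit on TRIzol RNA, per the labels' protocols.

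Counts were rounded, filtered with filterByExpr (12637 genes, 99.5% of counts), scaled with TMM and compared on the whole table in R 4.3.3 with edgeR 4.0.16's robust quasi-likelihood test on group alone, with Benjamini-Hochberg adjustment and a threshold of 0.05. Standard errors are the log2 fold change over the square root of F, and 95% intervals use the test's degrees of freedom. Log2 CPM used a prior count of 2. The scripts were tested on simulated data. Alternatives were DESeq2 1.42.0, limma-voom (limma 3.58.1), other scalings and filters, a replicate block and leaving out each library. No pair of libraries was a duplicate: the closest differed by 3.89 times sampling variance.

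The 10 genes, the lists and the naming rule (all 10 genes, up to 4 genes per list, the most alike genes, of which at most 2 by ID) were chosen with earlier results of these data known. Ratios to Pecam1 were added after seeing the data. The 21 lists of 178 symbols were not analysed here because 0 of 77134 IDs matched the human name tables used, and no mouse sequence was used.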

Additional observations from a re-analysis of the deposited data

How the results depend on the processing

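None of the 9 genes tested passed the adjusted threshold in any of 17 alternatives per gene, and the lowest adjusted p was 0.17, in edgeR without overexpression replicate 2. Leaving out that library moved the whole table. Of all genes 10.1% were then lower at an unadjusted edgeR p below 0.05, against 2.71% with all 6 libraries, and 14 rather than 2 passed the adjusted threshold. Pecam1, Cdh5, Kdr, Flt1, Tek, Tie1 and Eng kept their sign throughout. Emcn turned from 0.19 to -0.12 with library totals only and to -0.36 without overexpression replicate 1, and Esam from -0.15 to 0.017 without overexpression replicate 3. Leaving out 1 library gave -0.359 to 0.479 for Emcn and -0.494 to 0.017 for Esam. With library totals only the median of the 9 genes was -0.715 and 7 of them were lower at an unadjusted edgeR p below 0.05, against 4.63% of all genes. The count at that p ran from 1 to 6 with 1 library omitted. In these fits the share of all genes lower at that p ran from 1.34% to 10.1%, and the causes were not tested. The number of all genes called, 2 in edgeR, was 0 to 29 over the same alternatives, 29 with DESeq2 on all rows. With a replicate block 2 of the 9 genes, Tek and Tie1, had an unadjusted edgeR p below 0.05, against 3 without it, and Flt1 had 0.058. Of all genes 1.99% were lower at that p with the block and 2.71% without it. Same-numbered libraries deviated from their group means with correlations of -0.09, -0.34 and -0.10, against -0.16 to 0.25 for other numbers, and no label says that numbers mark pairs. At this depth Vwf could not be compared, and with 3 tumours a group the 95% interval of Pecam1 spanned 0.501 to 1.14 times the control level.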
